A study of Rattus norvegicus with 16 samples.

Results

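Rab genes encode small GTPases that mark membrane compartments and direct vesicles between them. A Rab protein is switched on by an exchange factor, recruits effectors such as tethers and motor adaptors, and is switched off by a GTPase activating protein. Nerve terminals use Rab3 proteins on synaptic vesicles, and muscle fibres use others, such as Rab8a and Rab13, to bring glucose transporters to the surface. The genes described here are all those whose single annotated symbol is Rab followed by a number, with or without a letter. There were 56 such genes, read by 97 probe sets, of 14217 genes with a named probe set in all. Each was read by 1 probe set, the one with the highest mean over the 16 arrays, and the choice used no difference between groups. Of the 56 genes, 43 passed the filter on low values, which asked for a level above the median of the array in at least 4 arrays, and these were tested.

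The study compared rectus extraocular muscle (EOM), which moves the eye, with tibialis anterior (TA), a limb muscle, in 4 rats numbered 15, 25, 27 and 29. Laser capture took tissue from 10 µm sections stained for acetylcholinesterase, about 1000 neuromuscular junctions per muscle and a like amount of fibre away from junctions. This gives 4 groups of 4 arrays: EOM_fiber, EOM_synapse, TA_fiber and TA_synapse. RNA was amplified over 2 cycles, with 600 ng of amplified RNA carried from the first into the second, and hybridised to Affymetrix rat arrays. All groups came from the same animals, killed by CO2 inhalation; the labels name no strain, genotype, age, sex or treatment. All levels below are quantile-normalized log2(intensity + 16) values, for which 4 is the lowest possible value, so differences of dim genes are understated. A captured region holds fibre, nerve terminal, Schwann cells and connective tissue, and in such bulk samples fewer cells of a type and less RNA per cell cannot be told apart.

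The muscle labels could be checked on genes outside the family. Myh13, the extraocular myosin, read 14.10 ± 0.37 in EOM_fiber and 5.53 ± 0.79 in TA_fiber (SD, n = 4), and Hoxa9, a limb patterning gene, read 4.25 ± 0.12 and 9.25 ± 0.31. The acetylcholine receptor gene Chrne, which marks junctions, read 11.36 ± 0.14 in EOM_synapse against 4.99 ± 0.83 in EOM_fiber, and 10.42 ± 0.35 in TA_synapse against 4.39 ± 0.08 in TA_fiber. Rapsn, which encodes the protein that clusters these receptors, did not pass the test at either junction: it read 7.54 ± 0.24 against 7.89 ± 0.41 in EOM (adjusted p 0.402 by limma) and 7.18 ± 0.15 against 7.44 ± 0.63 in TA (0.588). Chrna1, another receptor subunit gene, read 12.81 ± 0.11 in EOM_synapse and 12.18 ± 0.20 in TA_synapse. Its fibre groups were unlike, at 8.96 ± 0.28 in EOM_fiber and 5.43 ± 0.98 in TA_fiber. Of 7 postsynaptic genes tested, 4 were higher in EOM_fiber than TA_fiber (adjusted p under 0.05 by limma) and 0 lower. Of 8 Schwann cell markers tested, 2 were higher and 0 lower. The part of junction material in the fibre captures was not tested. Arrays of 1 group correlated with each other at 0.867 to 0.949 across probe sets, and no array was left out.

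The 250 bases before the annotated start were available for 45 of the 56 genes (RefSeq, rat assembly GRCr8). The 5 shown here are those of the called Rab genes (adjusted p under 0.05) that differed most between muscles or at the junction and had an entry; Rab38 had none, and Rab27a, with a difference of like size, was not called. Capitals mark E-boxes, the motif CANNTG bound by muscle regulatory factors, or N-boxes, CCGGAA or TTCCGG, known from junctional gene promoters; both strands were searched. Rab15 is at chr6:101257084-101257333 on the minus strand, Rab3b at chr5:128858841-128859090 on the plus strand, Rab40b at chr10:107157376-107157625 on the minus strand, Rab31 at chr9:112828093-112828342 on the minus strand and Rab40c at chr10:15440660-15440909 on the minus strand.
Rab15: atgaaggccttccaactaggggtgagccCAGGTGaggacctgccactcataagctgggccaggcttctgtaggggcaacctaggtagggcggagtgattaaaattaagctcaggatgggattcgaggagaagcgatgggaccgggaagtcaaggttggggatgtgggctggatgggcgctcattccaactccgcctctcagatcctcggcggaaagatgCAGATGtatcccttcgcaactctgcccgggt
Rab3b: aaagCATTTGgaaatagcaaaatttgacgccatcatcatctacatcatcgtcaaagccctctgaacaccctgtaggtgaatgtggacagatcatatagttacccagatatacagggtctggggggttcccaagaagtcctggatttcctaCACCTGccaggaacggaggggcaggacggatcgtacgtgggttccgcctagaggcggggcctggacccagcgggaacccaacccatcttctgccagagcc
Rab40b: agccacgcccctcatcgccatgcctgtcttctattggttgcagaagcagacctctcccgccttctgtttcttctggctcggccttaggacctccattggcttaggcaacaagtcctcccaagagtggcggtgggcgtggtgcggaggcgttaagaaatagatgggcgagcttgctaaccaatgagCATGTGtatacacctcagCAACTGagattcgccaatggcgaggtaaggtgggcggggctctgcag
Rab31: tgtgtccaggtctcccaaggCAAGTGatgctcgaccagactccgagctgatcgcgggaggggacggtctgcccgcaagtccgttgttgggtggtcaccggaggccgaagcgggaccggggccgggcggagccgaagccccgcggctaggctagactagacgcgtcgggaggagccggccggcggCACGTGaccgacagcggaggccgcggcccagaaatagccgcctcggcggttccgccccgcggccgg
Rab40c: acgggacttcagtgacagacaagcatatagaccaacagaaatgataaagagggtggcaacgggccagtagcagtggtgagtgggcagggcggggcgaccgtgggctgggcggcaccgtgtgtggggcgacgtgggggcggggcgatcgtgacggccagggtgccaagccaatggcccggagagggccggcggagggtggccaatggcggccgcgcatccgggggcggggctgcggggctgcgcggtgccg
Rab15, Rab3b, Rab40b and Rab31 each held 2 E-boxes and Rab40c held 0, and these 5 windows held 0 N-boxes. Of 33469 promoters of this length, 65.5% held an E-box and 12.6% an N-box. Of 46 windows of Rab genes (Rab30 has 2 starts), 26 held an E-box (56.5%) and 11 an N-box (23.9%). A match describes the letters only.

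For 16 of the 43 tested Rab genes (37.2%), the 4 group means lay within 0.5 log2 units of each other, against 25.9% of all 10405 genes tested. The median distance between the highest and lowest group mean was 0.62 for the Rab genes and 0.74 for all genes. These figures rest on the 1 probe set used for each gene. Rab7a, which directs late endosomes to lysosomes, was among the 16: its EOM_fiber arrays read 11.10, 11.57, 11.48 and 11.80 (rats 15, 25, 27 and 29, the order used throughout), EOM_synapse 11.58, 11.51, 11.54 and 11.43, TA_fiber 11.43, 11.81, 11.54 and 11.48, and TA_synapse 11.60, 11.23, 11.53 and 11.47. The 4 groups overlapped, and the group means spanned 0.11. The other Rab7a probe set, 1398838_at, above the median in 15 arrays, differed by -0.46 ± 0.42 between the fibre groups and 0.42 ± 0.42 between the junction groups (SE). It differed by 0.37 ± 0.42 at the EOM junction and -0.51 ± 0.42 at the TA junction. Rab2a, Rab10 and Rab11a, also within 0.5 units, each have another probe set that differed more, given below. In all, 14 of 43 Rab genes (32.6%) passed an adjusted p of 0.05 (limma, Benjamini-Hochberg over all genes tested) in at least 1 of 5 contrasts, and 31.2% of all genes did. The muscles were compared between fibres and between junctions, the junction with the fibre within each muscle, and the last 2 differences with each other (the interaction). The contrasts share arrays.

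**Figure D1:**
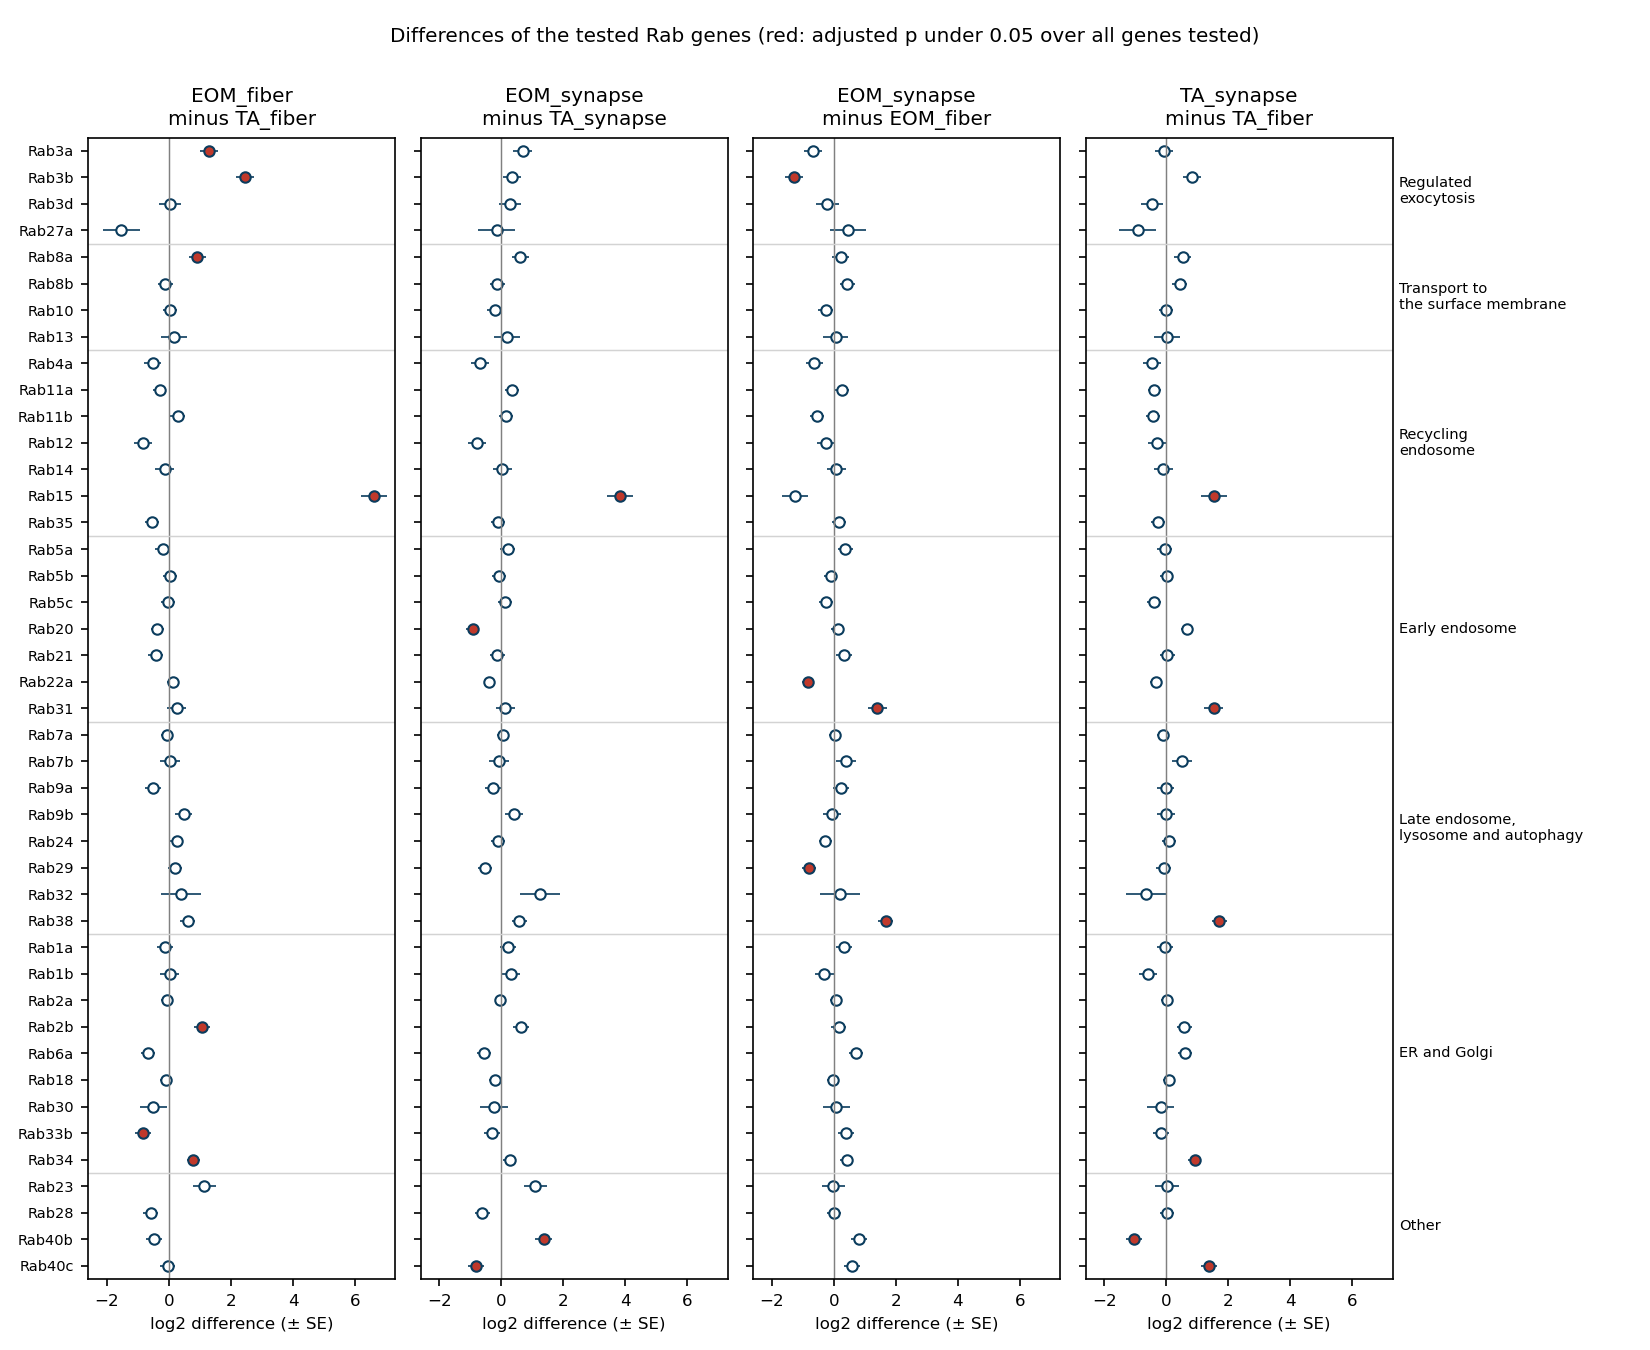
Difference of each of the 43 tested Rab genes in 4 comparisons, in log2 units (horizontal axis; points with standard error bars), grouped by cellular role; red points have an adjusted p under 0.05 over all genes tested. Rab15 lies farthest to the right in both comparisons of the muscles, at 6.62 and 3.82.

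Between fibres of the muscles, 6 Rab genes were higher in EOM_fiber and 1 was lower (7 of 43, 16.3%), beside 15.6% of all genes (8.42% higher and 7.17% lower). The median difference was -0.03 for the Rab genes and 0.03 for all genes. With the values as deposited the count was 8 higher and 3 lower, and with median centring 6 higher and 3 lower. Between junctions, 2 Rab genes were higher and 2 lower in EOM_synapse (9.3%, all genes 16.4%, of which 7.83% higher and 8.61% lower), with 4 and 1 as deposited and 3 and 0 with median centring. Within EOM, 2 were higher and 3 lower at the junction (11.6%, all genes 10.2%, of which 5.63% higher and 4.54% lower), with 2 and 2 as deposited and 2 and 1 with median centring. Within TA, 5 were higher and 1 lower at the junction (14%, all genes 10.3%, of which 6.71% higher and 3.55% lower). In the interaction, 1 was higher and 2 lower (6.98%, all genes 0.923%, of which 0.259% higher and 0.663% lower), with 1 and 0 as deposited and 0 and 2 with median centring. The shares of Rab genes called between fibres and within each muscle were near those of all genes.

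Regulated exocytosis was represented by 8 genes, of which Rab3a, Rab3b, Rab3d and Rab27a were tested. Rab26, Rab27b, Rab37 and Rab3c lay below the filter. Rab3a and Rab3b, which bind secretory and synaptic vesicles and control their release, were both higher in EOM_fiber than in TA_fiber. Rab3b (probe set 1370061_at) read 8.40, 7.54, 6.54 and 6.79 in EOM_fiber and 5.66, 5.14, 4.43 and 4.19 in TA_fiber. It read 6.43, 6.38, 5.35 and 5.94 in EOM_synapse and 5.70, 5.42, 5.81 and 5.78 in TA_synapse. Every EOM_fiber array was above every TA_fiber array, while the junction groups of the muscles overlapped. Rab3b was above the array median in 7 arrays, 4 of EOM_fiber and 3 of EOM_synapse, so it passed the filter through the groups where it was high.

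The Rab3b difference between fibres was 2.46 ± 0.29 (SE; adjusted p 1.1e-04 by limma, higher in 4 of 4 rats) and stayed past the threshold in every alternative in which it could be tested, at 1.43 with a pseudocount of 64 and 3.69 with 1. It was called with no filter too (adjusted p 0.000183 by limma), and with a filter of at least 8 arrays it was not tested. Rab3b has 1 probe set, so averaging probe sets could not change its value. The 4 TA_fiber arrays lay below their medians, so the size of this difference depends on the pseudocount. Between junctions it was 0.35 ± 0.29 (adjusted p 0.468). Within EOM, Rab3b fell by 1.29 ± 0.29 at the junction (adjusted p 0.0135, 4 of 4 rats), while within TA the difference was 0.82 ± 0.29 (adjusted p 0.0986, and 0.0477 without TA_synapse 15). The difference between these differences was -2.11 ± 0.42 (adjusted p 0.0300, negative in 4 of 4 rats). The fall within EOM lost its call without EOM_fiber 15, EOM_synapse 15 or EOM_synapse 27 (adjusted p 0.0504 to 0.0546), without rat 15 or 25, and with a pseudocount of 1 (0.0889). The interaction lost its call without any of 10 arrays (EOM_fiber 15 and 25, TA_fiber 27 and 29, all 4 of EOM_synapse, TA_synapse 27 and 29; 0.0505 to 0.0788), without any rat, without the block, as deposited and with a pseudocount of 1, and its value was -1.23 with a pseudocount of 64 and -3.24 with 1.

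Rab3a (probe set 1391434_at) read 9.18, 8.08, 8.18 and 8.30 in EOM_fiber and 6.94, 7.04, 7.54 and 7.05 in TA_fiber. The groups did not overlap, and rat 15 had the highest EOM_fiber value. The difference was 1.29 ± 0.30 (adjusted p 0.0098, 4 of 4 rats), and it lost its call without rat 15 (0.0809) and in a fit of the 8 fibre arrays alone (0.0576). A second Rab3a probe set, 1369816_at, differed by 0.93 ± 0.44 (adjusted p 0.276). At the junction the difference between muscles was 0.69 ± 0.30 (adjusted p 0.136). Rab27a, which docks secretory granules and melanosomes, read 4.37, 5.69, 6.32 and 6.75 in EOM_fiber and 8.19, 6.96, 7.29 and 6.83 in TA_fiber. The groups did not overlap, and the difference of -1.53 missed the threshold (95% interval -2.81 to -0.26, adjusted p 0.0977), although it passed without EOM_fiber 29, without rat 29 and with a pseudocount of 64.

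Markers of nerve were followed in the same comparisons. Of 11 neuron and axon markers, 3 were tested (Gap43, Nefm and Tubb3), and 2 of them were higher in EOM_fiber than TA_fiber: Nefm by 2.73 and Gap43 by 1.65. Both were also higher in EOM_synapse than TA_synapse, by 1.42 and 0.76. There Rab3a differed by 0.69 and Rab3b by 0.35, and neither was called. At the EOM junction, where Rab3b fell, 0 of the 3 markers were called by limma (0 at an unadjusted p under 0.05, median difference -0.115). At the TA junction Gap43 was higher by 1.33, and Rab3b differed by 0.82, which was not called. The other 8, the terminal genes Snap25, Syt1, Chat and Slc18a3 among them, lay below the filter in these captures. The summed intensity of the list was 323 to 422 in EOM_fiber, 254 to 550 in EOM_synapse, 101 to 372 in TA_fiber and 189 to 259 in TA_synapse. Its part in the Rab3 results was not tested. The 5 retina markers with a probe set also lay below the filter.

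Transport to the surface membrane was represented by Rab8a, Rab8b, Rab10 and Rab13, all tested. Rab8a, which carries vesicles from the Golgi to the plasma membrane, was the 1 called member, higher in EOM_fiber. It read 7.89, 7.15, 8.07 and 6.82 there and 6.81, 6.44, 6.35 and 6.64 in TA_fiber, so that the lowest EOM_fiber array lay just above the highest TA_fiber array. The difference was 0.92 ± 0.27 (adjusted p 0.0341, 4 of 4 rats). The call was lost without EOM_fiber 15 or 27, without any 1 of the 4 TA_fiber arrays (0.0504 to 0.12), without rat 15, 25 or 27, with no filter (0.0534) and in the 8 arrays alone. Rab10 differed by 0.04 between fibres (95% interval -0.47 to 0.55, adjusted p 0.940) and by -0.21 between junctions (-0.72 to 0.29, adjusted p 0.592). Its other probe set, 1368847_at, above the median in 15 arrays, differed by -0.63 ± 0.27 between fibres and -0.67 ± 0.27 between junctions (SE). Rab13 differed by 0.16 (-0.73 to 1.05, adjusted p 0.840) and 0.18 (-0.71 to 1.07, adjusted p 0.815). The arrays of Rab13 were the more spread, as its wider intervals show.

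Recycling endosomes were represented by 10 genes, of which 7 were tested and Rab17, Rab25 and Rab4b were not. The largest difference among all Rab genes was that of Rab15, a GTPase of early and recycling endosomes known mainly from neurons. Its probe set 1373646_at read 10.38, 11.21, 10.74 and 11.29 in EOM_fiber and 9.44, 9.15, 9.88 and 10.14 in EOM_synapse. In TA_fiber it read 4.21, 4.39, 4.22 and 4.33, close to the lowest possible value, and in TA_synapse 5.32, 4.18, 7.13 and 6.72. Every EOM array was above every TA array, and the 4 arrays of TA_synapse spread over almost 3 units, with rats 27 and 29 high and rat 25 at the TA_fiber level. The probe set passed the filter through 8 EOM and 2 TA_synapse arrays.

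Rab15 was 6.62 ± 0.42 higher in EOM_fiber than in TA_fiber (adjusted p 5.1e-07) and 3.82 ± 0.42 higher in EOM_synapse than in TA_synapse (adjusted p 4.1e-05), each in 4 of 4 rats and past the threshold in every alternative. Since TA_fiber lay at the lowest values, the sizes depend on the pseudocount: they were 8.76 and 4.69 with a pseudocount of 1 and 4.86 and 2.91 with 64. At the TA junction it was 1.55 ± 0.42 higher than in TA_fiber (adjusted p 0.0305), in 3 of 4 rats, with overlapping groups. At the EOM junction the difference was -1.25 ± 0.42 (adjusted p 0.0771), which passed with a pseudocount of 64 and in the 8 arrays alone. The interaction was -2.80 ± 0.59 (adjusted p 0.0409, negative in 4 of 4 rats).

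The 3 probe sets of Rab15 did not move alike. Probe set 1397839_at read 7.11, 7.37, 6.97 and 7.07 in EOM_fiber and 6.92, 7.10, 6.62 and 5.49 in TA_fiber, with overlapping groups and a difference of 0.60 ± 0.35 (adjusted p 0.397). Probe set 1370758_at differed by -0.10 ± 0.46 (adjusted p 0.947). With the mean of the 3 probe sets, the difference was 2.37 between fibres (adjusted p 0.00067), 1.5 between junctions (0.0127), 0.32 at the TA junction (0.679) and -0.87 in the interaction (0.619). Which part of the gene each probe set reads was not analysed here. The rise at the TA junction also lost its call without TA_fiber 15, 27 or 29 or TA_synapse 15, 27 or 29 (0.0503 to 0.104), without rat 15, 27 or 29 and in the 8 arrays alone (0.14), and it was 0.75 with a pseudocount of 64 and 2.80 with 1. The interaction kept its call without TA_fiber 25 or TA_synapse 25 and lost it without each of the 14 other arrays (0.0504 to 0.106), without rat 15, 27 or 29, without the block, as deposited, with a pseudocount of 1 and with no filter.

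**Figure D2:**
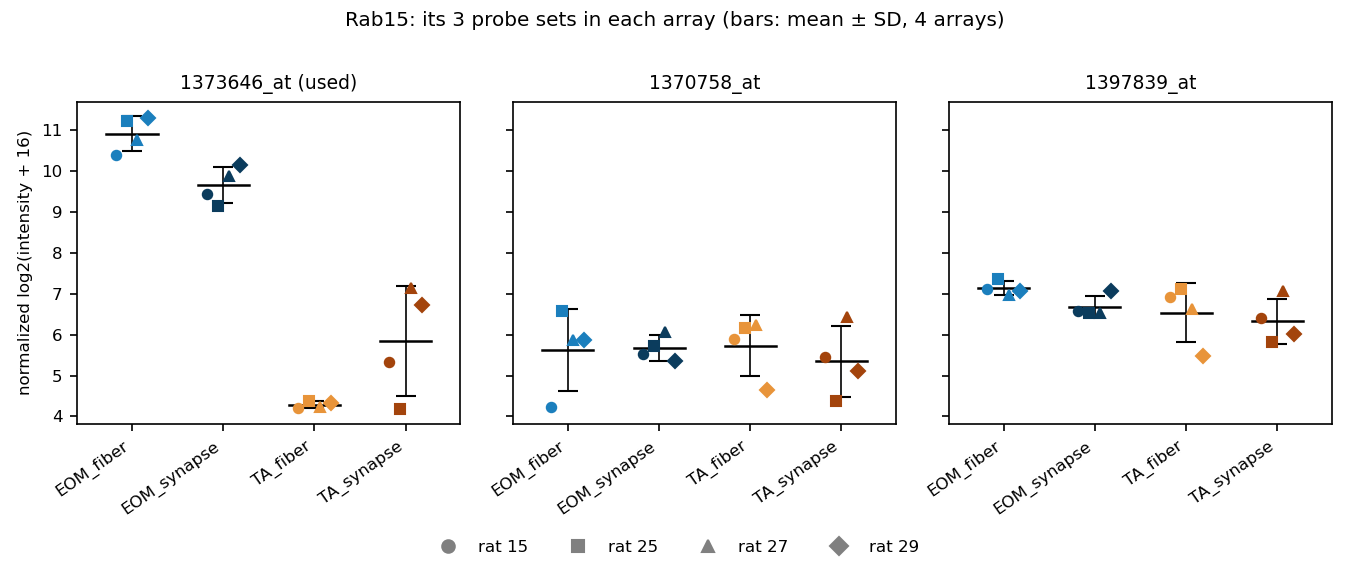
Level of the 3 probe sets of Rab15 in each array (vertical axis, normalized log2(intensity + 16)), by group on the horizontal axis, with markers for rats and bars for mean ± SD of 4 arrays. Probe set 1373646_at separates the muscles by several units, whereas the groups overlap for the other probe sets.

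Rab11a and Rab14, which return endosomal cargo to the surface, passed no threshold with the probe set used for each. Rab11a differed by -0.30 between fibres (95% interval -0.77 to 0.17, adjusted p 0.394) and by 0.34 between junctions (-0.13 to 0.82, adjusted p 0.320). The first value was called with the mean of all its probe sets (adjusted p 0.039 by limma). The other Rab11a probe set, 1398814_at, above the median in 16 arrays, differed by -1.01 ± 0.26 between fibres and -0.62 ± 0.26 between junctions (SE). Rab14 differed by -0.14 (-0.82 to 0.54, adjusted p 0.815) and 0.03 (-0.64 to 0.71, adjusted p 0.962). It has 5 probe sets. Of these, 1385314_at, above the median in 12 arrays, differed by -0.98 ± 0.40 between fibres and 0.59 ± 0.40 between junctions (SE). At the EOM junction it differed by 1.17 ± 0.40. In the first 2 comparisons, 1367884_at differed by -0.37 and -0.39 and 1376796_at by -0.24 and -0.26. Probe set 1397463_at, above the median in 0 arrays, differed by 0.48 and 0.21.

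Early endosomes were represented by 7 genes, all tested. Of these, 3 were called in at least 1 of the 5 contrasts, beside 31.2% of all genes tested and 32.6% of the tested Rab genes. Rab31, which acts between the Golgi and endosomes, was higher at the junction in both muscles. It (probe set 1373894_at) read 8.36, 8.38, 8.44 and 8.19 in EOM_synapse and 7.20, 7.13, 6.61 and 6.84 in EOM_fiber. In TA_synapse it read 8.64, 8.47, 7.32 and 8.45 and in TA_fiber 7.14, 5.79, 7.05 and 6.76. Neither pair of groups overlapped, though rat 27 was low in TA_synapse. The differences were 1.40 ± 0.31 in EOM (adjusted p 0.0109) and 1.53 ± 0.31 in TA (adjusted p 0.0056), each in 4 of 4 rats, and the interaction was -0.13 (95% interval -1.07 to 0.80, adjusted p 0.951). The EOM call was lost without rat 15 or 29 (0.0655 to 0.0682) and the TA call without rat 29 (0.0558) and in the 8 arrays alone. Rab31 has a dim probe set, 1370780_at, above the median in 1 array, and with the mean of both the differences were 0.50 (0.229) and 0.75 (0.0656).

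Rab22a, which sorts cargo in early endosomes, fell by 0.84 ± 0.19 at the EOM junction (adjusted p 0.0118, 4 of 4 rats). It read 7.99, 7.90, 8.22 and 8.04 in EOM_synapse and 9.19, 8.36, 8.87 and 9.10 in EOM_fiber, without overlap. The call was lost without rat 15 or 29 (0.104 to 0.11), with median centring and in the 8 arrays alone, and the mean of its 3 probe sets differed by -0.18 (0.762). Rab20, linked to endosomes and phagosomes, was lower in EOM_synapse than TA_synapse by -0.92 ± 0.20 (adjusted p 0.0073, 4 of 4 rats). It read 7.0, 7.44, 7.04 and 7.54 against 8.33, 8.08, 7.94 and 8.34, without overlap. That call was lost without rat 27 (0.0529), with median centring (0.0555) and with the mean of its 3 probe sets (-0.54, 0.189). Rab5a, the founding early endosome Rab, differed by -0.21 between fibres (-0.73 to 0.31, adjusted p 0.620) and 0.20 between junctions (-0.32 to 0.73, adjusted p 0.624).

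Late endosomes, lysosomes and autophagy were represented by 8 genes, all tested. Rab38, which supplies lysosome-related organelles such as melanosomes, had the largest junctional rise of any Rab gene in each muscle. It (probe set 1370414_at) read 8.31, 7.64, 8.07 and 8.67 in EOM_synapse and 6.16, 5.96, 6.75 and 7.12 in EOM_fiber. In TA_synapse it read 6.86, 7.33, 8.28 and 7.92 and in TA_fiber 5.99, 5.05, 6.18 and 6.33. Neither pair overlapped, and within each rat the junction array was the higher. The rises were 1.67 ± 0.24 in EOM (adjusted p 7e-04) and 1.71 ± 0.24 in TA (adjusted p 4e-04), both past the threshold in every alternative. They differed by -0.04 (95% interval -0.78 to 0.70, adjusted p 0.987 by limma). Rab38 has 1 probe set, so averaging probe sets could not change these values.

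Rab29, which acts at the Golgi and stressed lysosomes, fell by 0.79 ± 0.23 at the EOM junction (adjusted p 0.0433, 4 of 4 rats). It read 7.58, 7.66, 7.50 and 8.09 in EOM_synapse and 9.24, 8.23, 8.23 and 8.32 in EOM_fiber, without overlap, with rat 15 the highest fibre array. The call was lost without the EOM_fiber or EOM_synapse array of rat 15, 25 or 27 (0.0582 to 0.153), without any rat (without rat 15 the value was -0.51, adjusted p 0.231), and in 6 of the other 9 alternatives. Rab7a differed by -0.08 between fibres (-0.49 to 0.33, adjusted p 0.830) and 0.06 between junctions (-0.35 to 0.47, adjusted p 0.872).

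Markers of other cells also moved at the junction. Of 10 Schwann cell markers with a named probe set, 8 were tested and 5 were higher at the junction in each muscle, S100b by 2.90 in EOM and 2.50 in TA. Erbb3 and Cadm4 lay below the filter. The summed intensity of the list was 7230 to 13900 in EOM_synapse and 1680 to 2640 in EOM_fiber, and 3210 to 5180 in TA_synapse and 402 to 757 in TA_fiber. Of 7 fibroblast markers tested, 4 were higher at the EOM junction and 7 at the TA junction, with sums of 13200 to 26500, 4160 to 16700, 7850 to 19400 and 1350 to 5660 in the same order. Of 7 postsynaptic genes tested, 6 were higher at each junction. Rapsn was the exception. Other lists held genes that fell. Of 10 endothelial markers tested, 5 were lower and 1 higher at the EOM junction (median difference -0.995) and 4 lower and 1 higher at the TA junction (median -0.597), with summed intensities of 1850 to 2870 in EOM_synapse, 3490 to 4840 in EOM_fiber, 2750 to 4080 in TA_synapse and 2210 to 2770 in TA_fiber. Of 7 smooth muscle and pericyte markers, 2 were lower and 1 higher at each junction. Of 9 fibre markers tested, 2 were lower at the EOM junction and 1 at the TA junction. The part of these cells in the junctional rises of Rab38, Rab31, Rab34 and Rab40c and in the falls of Rab22a, Rab29, Rab3b and Rab40b was not tested.

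**Figure D3:**
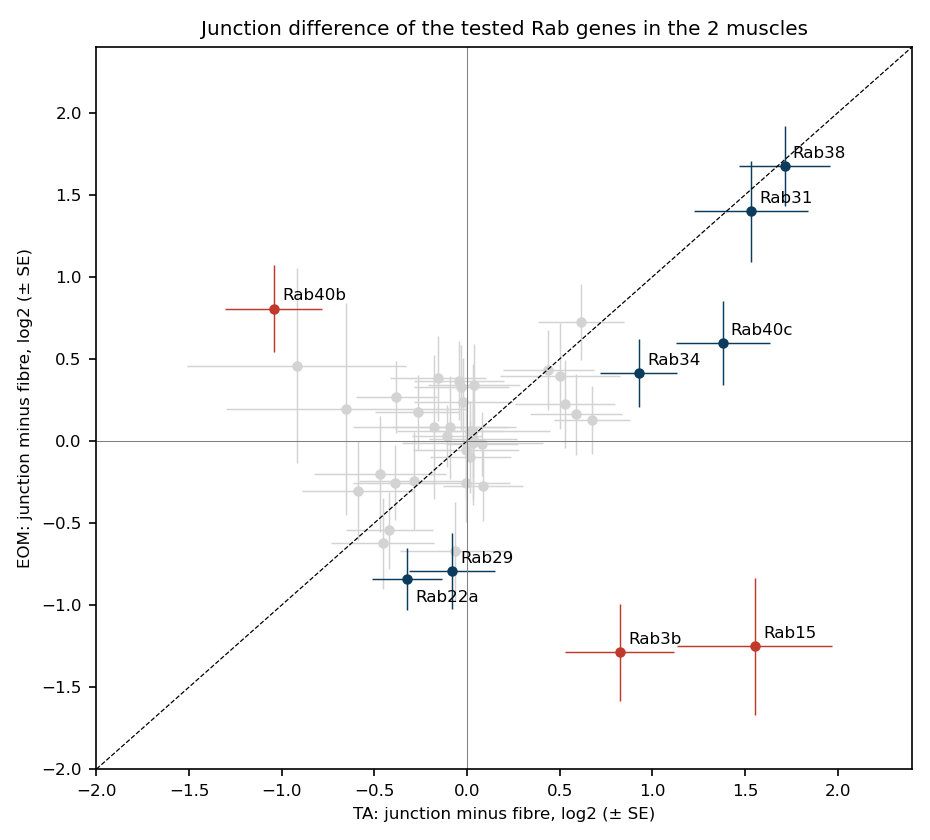
Junction minus fibre difference of each of the 43 tested Rab genes in EOM (vertical axis) against TA (horizontal axis), in log2 units with standard errors; the dashed line marks equal differences. Red genes passed the threshold in the interaction, dark blue genes in at least 1 muscle, and grey genes in neither; Rab38 and Rab31 lie near the line, and Rab15, Rab3b and Rab40b far from it.

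Traffic through the endoplasmic reticulum and Golgi was represented by 14 genes, of which 9 were tested; Rab19, Rab33a, Rab36, Rab43 and Rab6b lay below the filter. Between fibres, Rab2b and Rab34 were higher and Rab33b lower in EOM_fiber. Rab2b, of early secretory membranes, read 7.09, 6.80, 7.34 and 7.15 in EOM_fiber and 6.66, 4.97, 6.14 and 6.36 in TA_fiber, without overlap and with rat 25 lowest in both. The difference was 1.07 ± 0.25 (adjusted p 0.0105, 4 of 4 rats), and 0.67 with a pseudocount of 64. The call was lost without rat 25 or 27 (0.0544 to 0.0706), in the 8 arrays alone and with the mean of both probe sets (0.58). Rab33b, of the Golgi and of autophagosome formation, read 6.21, 7.47, 7.04 and 7.41 against 7.84, 8.05, 7.61 and 8.0, without overlap. Its difference of -0.84 ± 0.26 (adjusted p 0.0412, 4 of 4 rats) lost its call without EOM_fiber 15 or 27 or TA_fiber 15, 25 or 29 (0.094 to 0.119), without any rat, and in 5 of the other 9 alternatives.

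Rab34, which acts at the Golgi and positions lysosomes, was higher in EOM_fiber than TA_fiber and higher at the TA junction than in TA_fiber. It (probe set 1376573_at) read 7.72, 7.46, 7.74 and 7.17 in EOM_fiber and 6.66, 7.02, 6.76 and 6.50 in TA_fiber. It read 7.40, 7.52, 8.26 and 7.47 in TA_synapse and 7.97, 7.60, 8.16 and 8.01 in EOM_synapse. TA_fiber was the low group, and it overlapped with none of the others. The difference between fibres was 0.79 ± 0.21 (adjusted p 0.0205) and that at the TA junction 0.93 ± 0.21 (adjusted p 0.0115), each in 4 of 4 rats. The first lost its call without EOM_fiber 15 or TA_fiber 15, 27 or 29 (0.0561 to 0.0748) and without rat 15, 27 or 29, and the second without TA_fiber 27 (0.0508) and without rat 27 or 29. Both were lost in the 8 arrays alone and with the mean of both probe sets (0.25 and 0.28), since probe set 1375558_at differed by -0.29 and -0.37. All 7 fibroblast markers tested and 5 of 8 macrophage markers were also higher in EOM_fiber than TA_fiber. The macrophage markers summed to 1290 to 2640 in EOM_fiber and 637 to 918 in TA_fiber, with Aif1, C1qb and Itgam below the filter, and the part of these cells was not tested.

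Rab40b and Rab40c belong to a subfamily with a SOCS box, through which they join ubiquitin ligases. They moved in opposite directions at the TA junction. Rab40b (probe set 1383826_at) read 8.88, 9.36, 8.53 and 8.20 in TA_synapse and 9.84, 10.28, 9.74 and 9.28 in TA_fiber. It read 10.52, 10.47, 9.79 and 9.63 in EOM_synapse and 8.63, 9.62, 9.30 and 9.64 in EOM_fiber. Each EOM_synapse array was above each TA_synapse array, whereas the groups within each muscle overlapped slightly.

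Rab40b was 1.36 ± 0.26 higher in EOM_synapse than TA_synapse (adjusted p 0.0030, 4 of 4 rats, past the threshold in every alternative), and a second probe set, 1386602_at, differed by 1.03 ± 0.36 (adjusted p 0.129). It fell by 1.04 ± 0.26 at the TA junction (adjusted p 0.0216, 4 of 4 rats), and the difference at the EOM junction was 0.81 ± 0.26 (adjusted p 0.0704), which passed without EOM_fiber 29, without rat 29 and with a pseudocount of 64. The interaction was 1.85 ± 0.37 (adjusted p 0.0322, 4 of 4 rats). The TA fall lost its call without TA_fiber 15, 25 or 27 or TA_synapse 27 or 29 (0.0518 to 0.0733), without rat 25, 27 or 29, and with the mean of both probe sets (-0.64). The interaction kept its call without EOM_fiber 15 or 29 or TA_fiber 29 and lost it without each of the 13 other arrays (0.054 to 0.0825), without any rat, without the block, with median centring, with a pseudocount of 1, with no filter and with the mean of both probe sets (1.19).

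Rab40c (probe set 1372636_at) read 8.94, 7.97, 8.60 and 9.0 in TA_synapse and 7.58, 6.92, 6.94 and 7.55 in TA_fiber. The groups did not overlap, and the rise of 1.38 ± 0.25 (adjusted p 0.0031 by limma, 4 of 4 rats) was past the threshold in every alternative. Rab40c has 1 probe set, so averaging probe sets could not change this value. In EOM_synapse it read 8.08, 7.62, 7.74 and 7.77 and in EOM_fiber 6.64, 7.43, 7.09 and 7.67. The difference at the EOM junction was 0.60 ± 0.25 (adjusted p 0.160) and the interaction -0.78 (95% interval -1.55 to -0.01, adjusted p 0.454). Between junctions Rab40c was lower in EOM_synapse by -0.82 ± 0.25 (adjusted p 0.0402, 4 of 4 rats), with overlapping groups. That call was lost without each of 7 of the 8 junction arrays, TA_synapse 25 being the exception (0.0552 to 0.132), without rat 15, 27 or 29, and in 5 of the other 9 alternatives.

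**Figure D4:**
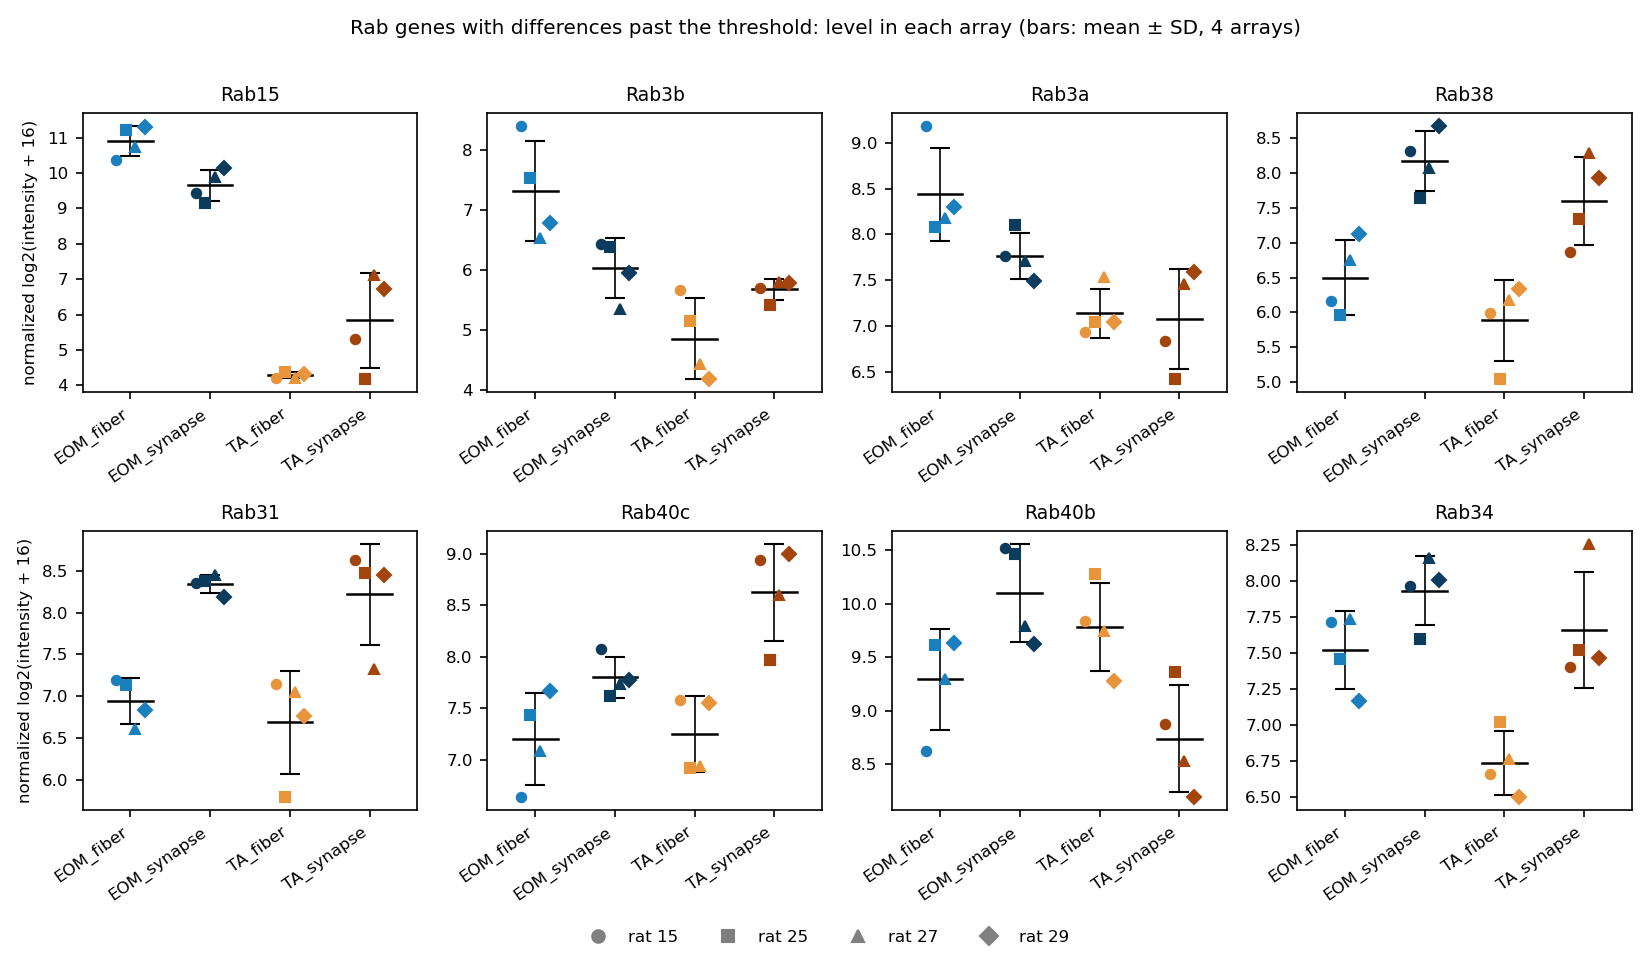
Levels of 8 Rab genes in each array (vertical axes, normalized log2(intensity + 16), with a separate range per gene), by group on the horizontal axis, with a marker for each rat and bars for mean ± SD of 4 arrays. Rab15 separates the muscles, Rab38 and Rab31 separate junction from fibre in both, and Rab40c separates junction from fibre in TA.

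The other 29 tested Rab genes passed the threshold in no contrast with the probe set used for each. Their differences ranged from -1.53 (Rab27a) to 1.14 (Rab23) between fibres, from -0.79 (Rab12) to 1.24 (Rab32) between junctions, from -0.62 (Rab4a) to 0.73 (Rab6a) at the EOM junction and from -0.92 (Rab27a) to 0.61 (Rab6a) at the TA junction; these extremes are named after their values were seen. Rab23, a negative regulator of hedgehog signalling, came closest among them between fibres, at 1.14 ± 0.38 (95% interval 0.33 to 1.96, adjusted p 0.0571, 4 of 4 rats), and was 1.10 ± 0.38 between junctions (0.28 to 1.92, adjusted p 0.0643). The other Rab23 probe set, 1396716_at, above the median in 3 arrays, differed by 0.01 ± 0.42 between fibres and -0.17 ± 0.42 between junctions (SE). Rab12 also has another probe set, 1371055_at, above the median in 16 arrays. It differed by 0.17 ± 0.32 between fibres and 0.10 ± 0.32 between junctions. Rab32, related to Rab38, had an interval of -0.15 to 2.63 between junctions. Rab2a, also named after its values were seen, has 2 probe sets that did not move alike. The one used differed by -0.08 between fibres and -0.03 between junctions. Its other probe set, 1370087_at, above the median in 16 arrays, differed by -1.21 ± 0.28 and -1.41 ± 0.28 (SE). The second of these values lies outside the range given above for junctions. The 13 genes that were not tested were above the array median in 0 to 3 arrays. Rab39a and Rab4b, with 3 arrays, lay just outside the filter, while Rab3d, with 6, and Rab30 and Rab3b, with 7, were the nearest inside it.

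The proteins that load, switch and read Rab GTPases were followed in a list of 125 partner genes, of which 90 were tested. Between fibres 5 were higher and 11 lower in EOM (17.8%), and between junctions 5 higher and 11 lower (17.8%). At the EOM junction 1 was higher and 2 lower (3.33%), at the TA junction 3 higher and 2 lower (5.56%), and 0 passed the interaction by limma (9 at an unadjusted p under 0.05). The shares within muscles were below those of all genes and those between muscles close to them. Of 27 exchange factors tested, 5 were lower in EOM_fiber than TA_fiber (Ccz1, Dennd2c, Mon1b, Rab3ip and Rabgef1, named after their values were seen), beside 7.17% of all genes, and 6 were lower in EOM_synapse than TA_synapse, beside 8.61% of all genes.

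Effectors of Rab27 and of Rab11 stood among the partners with the largest differences. Sytl1, a synaptotagmin-like effector of Rab27, read 7.58 ± 0.39 in EOM_fiber against 5.09 ± 0.35 in TA_fiber (SD, n = 4). It was 2.49 ± 0.28 higher there (SE, adjusted p 6.7e-05) and 1.43 ± 0.28 higher in EOM_synapse than TA_synapse (adjusted p 0.0030). Sytl2, of the same family, was 1.90 ± 0.32 higher in EOM_fiber (adjusted p 0.0013). Rab11fip5, an effector of Rab11, was 1.62 ± 0.20 higher in EOM_synapse than TA_synapse (adjusted p 1.0e-04 by limma). Away from junctions it was also higher in EOM, at 9.12 ± 0.25 in EOM_fiber and 7.74 ± 0.17 in TA_fiber (SD). Myo7a, a motor that Rab27a can recruit, was 1.39 ± 0.29 higher in EOM_fiber (adjusted p 0.0058), and lost its call without rat 27 (0.0549).

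Other partners were lower in EOM, and Myrip was lower at the TA junction. Ehbp1, an effector of Rab8 and Rab10, read 7.68 ± 0.54 in EOM_fiber against 9.52 ± 0.29 in TA_fiber, and differed by -1.84 ± 0.26 (adjusted p 4.3e-04). Dennd2c, an exchange factor, read 6.98 ± 0.10 in EOM_synapse and 9.59 ± 0.28 in TA_synapse, a difference of -2.61 ± 0.20 (adjusted p 2.5e-06), and it was 1.13 ± 0.20 higher at the TA junction than in TA_fiber (adjusted p 0.0025). Sh3bp5, an exchange factor for Rab11, was lower in EOM_synapse than TA_synapse by -1.39 ± 0.27 (adjusted p 0.0031). Myrip, which links Rab27a to myosin, fell by 1.33 ± 0.23 at the TA junction (adjusted p 0.0018 by limma). In EOM it read 7.12 ± 0.07 at the junction and 7.78 ± 0.35 in fibre (SD). All these calls except that of Myo7a held in every alternative, and all had the same sign in 4 of 4 rats. Some sizes moved: with pseudocounts of 64 and 1, Sytl1 differed by 1.54 and 3.25 between fibres and by 0.73 and 2.42 between junctions, and Sytl2 by 1.16 and 2.56 between fibres. Myo7a ranged from 0.65 to 2.47 over the alternatives that leave out no array or rat, and Myrip differed by -0.65 with the mean of its probe sets. Mon1b, Rabgap1, Ehd1, Hps1, Dennd2a, Rilpl1 and, within EOM, Sytl1 also passed the threshold, but each lost its call in at least 1 alternative.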

How the data were processed

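Gene expression was measured on 16 arrays, 4 in each of 4 groups. The authors deposited linear intensity values, which the values show to be scaled to a common mean once the outer 2% at either end are dropped. Which software summarised the probes was not given in the sources used here. Array medians ran from 33.4 to 57, so log2(intensity + 16) was quantile normalized here. Names follow the annotation of the array: 20826 probe sets carried 1 gene and 436 several, of which 3 named Rab genes. The test was limma 3.58.1 (R 4.3.3) on 4 group means plus the rat as a block, leaving 9 residual degrees of freedom. Benjamini-Hochberg adjustment ran over 10405 genes in each contrast. Only the limma fit was run on simulated data, which were log2 values with independent normal spread and no rat effect. Normalization, the pseudocount, the probe set choice and the filter were not part of that check. The number of arrays limits the precision.

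Titles share the numbers 15, 25, 27 and 29 across groups, and the design names 4 rats, so arrays with 1 number were paired. Once group means were removed, the 24 such pairs had a mean r of 0.113 (-0.066 to 0.247, 16 over 0.1); a batch under the same number cannot be told apart from the animal. Named genes are those past the threshold with 1 sign in all 4 rats, 7 trafficking genes from a short list that were not called, and the 5 partners with the largest differences per contrast. The members and lists were chosen with earlier results of these data known. Alternatives covered the block, scaling, pseudocount, filter, probe set choice, the arrays fitted and each array or rat left out.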

Additional observations from a re-analysis of the deposited data

Results flagged for a closer look

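In 9 of 84 groups of 4 arrays (21 named genes in 4 groups), 1 array stood apart from the other three by a gap that chance gives in about 1 group of 20. Low values were those of Rab10 in EOM_fiber 25 (10.31) and EOM_synapse 15 (9.801), Rab22a in TA_synapse 25 (8.182), Rab27a in EOM_synapse 29 (4.471), Rab31 in TA_synapse 27 (7.32) and Rab5a in TA_synapse 29 (8.111). High values were those of Rab29 in EOM_fiber 15 (9.243) and TA_fiber 15 (8.689) and Rab34 in TA_synapse 27 (8.259). The junction difference differed between the muscles, by the interaction term, for Rab40b (1.85), Rab3b (-2.111) and Rab15 (-2.803). The calls of Rab40b and Rab3b were lost without any 1 rat. That of Rab15 was lost without rat 15, 27 or 29 and with the mean of its probe sets (-0.87).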

How the results depend on the processing

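The 25 calls of Rab genes gave 543 values under the alternatives: 366 kept their side of the threshold, 177 lost it and 0 changed sign. Of the 25, 7 calls were kept under every alternative in which the gene was tested. They were Rab15 between fibres and between junctions, Rab3b between fibres, Rab40b between junctions, Rab38 at both junctions and Rab40c at the TA junction. Rab3b, above the median in 7 arrays, was not tested with the filter of 8. Rab38, Rab40c and Rab3b have 1 probe set each, so averaging probe sets could not change their values. For Rab15, the mean includes the probe set used, at 6.62 between fibres and 3.82 between junctions. The other probe sets differed by 0.60 and 0.36 (1397839_at) and by -0.10 and 0.32 (1370758_at). Between fibres, the count of 7 Rab genes became 11 as deposited, 11 with a pseudocount of 64, 2 in the 8 arrays alone, 4 to 10 without 1 array and 3 to 7 without 1 rat. Between junctions, 4 became 7 with a pseudocount of 64, 3 to 4 without 1 array and 2 to 4 without 1 rat. Within EOM, 5 became 3 with median centring, a pseudocount of 1 or the mean of all probe sets, 8 with a pseudocount of 64, 3 to 7 without 1 array and 1 to 4 without 1 rat. Within TA, 6 became 2 with the mean of all probe sets, 3 in the 8 arrays alone, 3 to 6 without 1 array and 2 to 5 without 1 rat. The interaction count of 3 became 1 as deposited, with no filter or with the mean of all probe sets, 0 with a pseudocount of 1, 0 to 2 without 1 array and 0 to 1 without 1 rat. Without the replicate block the counts were 7, 3, 4, 6 and 0. Where limma called 0 in the interaction, 3 to 6 Rab genes had an unadjusted p under 0.05. Apart from the arrays or probe sets that an alternative leaves out or averages, the cause was not tested. Over all genes the counts ranged from 582 to 1952 (main 1622), 905 to 2135 (1711), 476 to 1460 (1058), 582 to 1310 (1067) and 25 to 217 (96) in the same order. The median of all genes moved to 0.108 between fibres as deposited and to 0.104 in the interaction with median centring. Levels near the lowest value limit fold changes of dim genes.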
